A study of Homo sapiens with 6 samples.

Results

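S100 proteins and annexins are families of calcium-binding proteins, and their transcripts were followed here through HDAC inhibition in a breast cancer line. The members were all genes with a symbol that begins with S100A, S100B, S100P, S100G or S100Z, or with ANXA and a digit, which gave 38 of the 18132 genes on the array. Of these, 21 were S100 genes, 12 were annexin genes and 5 shared only the start of the symbol. These 5 were S100PBP, which encodes a binding protein of S100P, ANXA2R, named as an annexin A2 receptor, and the ANXA2 pseudogenes ANXA2P1, ANXA2P2 and ANXA2P3. The S100 genes included S100A7L2, annotated as a pseudogene.

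MDA-MB-231 is an established triple-negative breast cancer line. All 6 samples were grown in DMEM/F12 with 10% serum, and total RNA was taken at 8 h. In 3 samples the medium held 5 µM SAHA (vorinostat), which inhibits zinc-dependent histone deacetylases (HDACs), and in the other 3 it held DMSO alone. No label states that samples of a group were grown apart, so the p-values measure the spread between these samples, which may be technical.

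S100 proteins are small dimers of EF-hand subunits that open a binding face when calcium rises and then bind target proteins. Some are also secreted and act on receptors such as RAGE and TLR4. Annexins bind acidic phospholipids of membranes in the presence of calcium, and serve in membrane repair, vesicle traffic and the handling of plasmin at the cell surface. The families meet in complexes such as that of annexin A2 with an S100A10 dimer. In breast cancer S100A4 and S100P are known for their association with motility and metastasis.

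Promoter sequences are shown for the 5 members that kept their call in every other setting run for them. TATAAA began 20 to 35 bases before the start in 4 of the 6 members called higher and in none of the 8 called lower. It did so in 7 of the 17 members not called that had a promoter window, and in 2.21% of all windows. This grouping was noticed after the values were seen. It counts the calls of ANXA10, S100A3 and S100Z, which were lost in 8 of 15, 9 of 17 and 5 of 15 other settings. Each sequence holds the 100 bases before the annotated transcription start, from RefSeq, GRCh38.p14, in the direction of transcription. In the first 3 genes, all higher with SAHA, capitals mark TATAAA, the TATA box motif. S100A4 lies at chr1:153545807-153545906 on the minus strand, S100P at chr4:6693778-6693877 on the plus strand and ANXA1 at chr9:73151765-73151864 on the plus strand.
S100A4: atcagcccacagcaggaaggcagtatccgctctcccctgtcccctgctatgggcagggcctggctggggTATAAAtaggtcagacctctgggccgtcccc
S100P: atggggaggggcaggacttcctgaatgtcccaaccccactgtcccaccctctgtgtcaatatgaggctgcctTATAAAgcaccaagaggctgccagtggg
ANXA1: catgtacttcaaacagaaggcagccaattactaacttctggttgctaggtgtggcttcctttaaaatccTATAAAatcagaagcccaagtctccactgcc

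For ANXA3 and S100A16, both lower with SAHA, the capitals mark CG dinucleotides. The ANXA3 region is chr4:78551670-78551769 on the plus strand and holds 9 CG dinucleotides in 100 bases. RefSeq gives S100A16 a pair of start sites. The first has chr1:153613138-153613237 on the minus strand before it, with no CG dinucleotide, and the second has chr1:153609356-153609455 on the minus strand, with 4. None of these 3 regions holds TATAAA, while their CG content differs.
ANXA3: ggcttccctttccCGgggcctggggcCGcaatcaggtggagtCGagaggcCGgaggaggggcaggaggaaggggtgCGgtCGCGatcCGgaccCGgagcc
S100A16 first start: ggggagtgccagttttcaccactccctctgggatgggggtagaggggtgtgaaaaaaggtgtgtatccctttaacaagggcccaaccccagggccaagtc
S100A16 second start: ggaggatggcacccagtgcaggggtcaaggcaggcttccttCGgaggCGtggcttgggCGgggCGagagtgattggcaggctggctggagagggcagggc

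A promoter window of 300 bases, from 250 before to 50 after the start, was at hand for 31 of the 38 members. TATAAA, searched on the gene's own strand, began 20 to 35 bases before the start in S100A4, S100P, ANXA1 and ANXA10 among those called higher. It was there in 7 of the 17 with a window that did not pass the test, among them ANXA2, S100A8 and S100A9. Of the members' 45 windows, 11 (24.4%) held it at that place, against 2.21% of all 35116 windows. It began 31 bases before the start in S100A4 and ANXA1 and 28 bases before it in S100P. At any place in the window TATAAA was found in 5 of the 6 members called higher, which adds ANXA11, and in 1 of the 8 called lower, S100Z. The share of windows was then 33.3% for the members and 7.33% for all. The match describes the letters and was not tested as a site.

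With SAHA most S100 and annexin transcripts differed little from DMSO. However, 15 of the 38 members were dim, at a mean log2 value under 5, where the median size of change of all genes was 0.10. Among members at a mean of at least 7 the median size was 0.17, against 0.41 for all such genes. Among the family genes, ANXA3 fell 2.05-fold and S100A16 fell 1.45-fold, while S100A4 and S100P each rose by about 1.7-fold. The annexins A1, A2, A5 and A6 and the S100 proteins A6, A10, A11 and A13, each at a mean log2 value above 9, differed from DMSO by at most 0.25 log2 units. The inflammatory S100A8, S100A9 and S100A12 were dim in both groups. In a bulk sample fewer expressing cells and less RNA per cell cannot be told apart.

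Values are log2 expression values of the probe set with the highest mean for each gene, and fold changes are SAHA minus DMSO on that scale, with limma's standard error and p-values adjusted over all genes at a threshold of 0.05. Of the 38 members 14 passed, 6 higher and 8 lower. Over all genes 48.3% passed, with 24.6% higher and 23.8% lower. Of the 21 S100 genes 2 rose and 5 fell, with a median of -0.05. Of the 12 annexin genes 4 rose and 1 fell, with a median of 0.08, and the median of all genes was -0.01. Of the members, 1 changed by at least 2-fold, against 10.4% of all genes. The groups did not overlap in 19 members, against 55.5% of all genes. The balance of higher and lower calls moved with the scaling, in the members as in all genes. With the arrays centred on ribosomal protein genes, which raised the median of all genes by 0.14, 6 S100 genes were higher and 2 lower, 7 annexins were higher and 1 lower, and of all members 14 were higher and 5 lower, where 36.2% of all genes were higher and 17.9% lower. With poly-A spike-ins as the centre, which raised it by 0.18, the counts were 4 and 1 for S100 genes, 5 and 1 for annexins, and 9 and 3 for all members, where 33.2% of all genes were higher and 13.3% lower. Without DMSO array 3 or SAHA array 1 or 2, 2 annexins were called higher, and without SAHA array 2 or 3, 3 S100 genes were called lower. With any 1 array left out, 22.7% to 23.9% of all genes were higher and 21.8% to 22.9% lower.

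**Figure D1:**
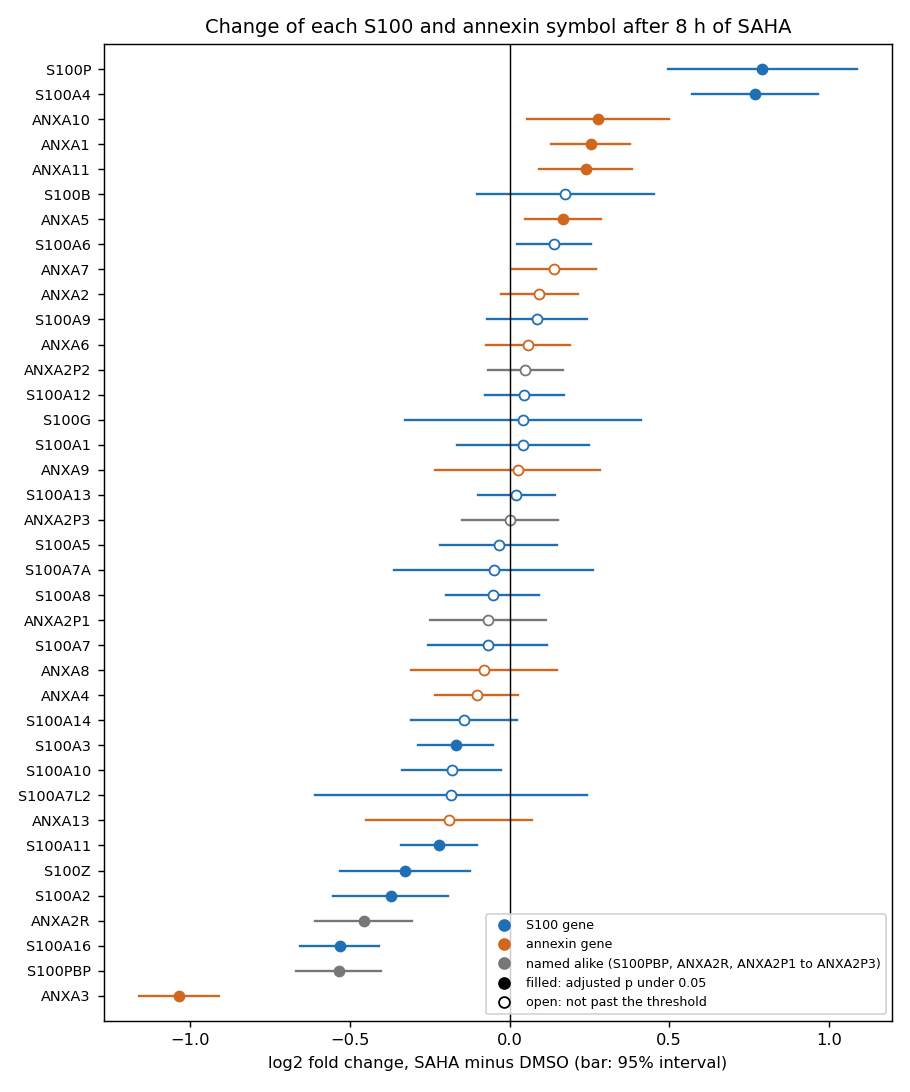
Log2 fold change (SAHA minus DMSO) of all 38 members with its 95% interval, S100 genes in blue, annexin genes in orange and genes named alike in grey, filled where the adjusted p is under 0.05. S100P and S100A4 lie at the top near 0.8, ANXA3 lies alone at -1.04, and 26 members lie within 0.2 of zero.

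The share of genes called grows with the level, so the members were also set beside genes of like level. At a mean log2 value of at least 7, 10 of 18 members passed, where 75.1% of all such genes did, and the median size of change was 0.17 for members and 0.41 for all such genes. At a mean of at least 10, 6 of 12 members passed against 71%, with median sizes of 0.17 and 0.32. Among the brightest genes small changes were the rule, with a median size of 0.17 for all genes between 12 and 13 and 0.09 between 13 and 14. The bright members are to be read against that. Under a mean of 5 lay 15 members, of which 2 passed, against 11.9% of all genes there. Between 5 and 7, 2 of 5 passed, against 39.4%. A probe set's level also depends on its probes and does not rank the genes.

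**Figure D2:**
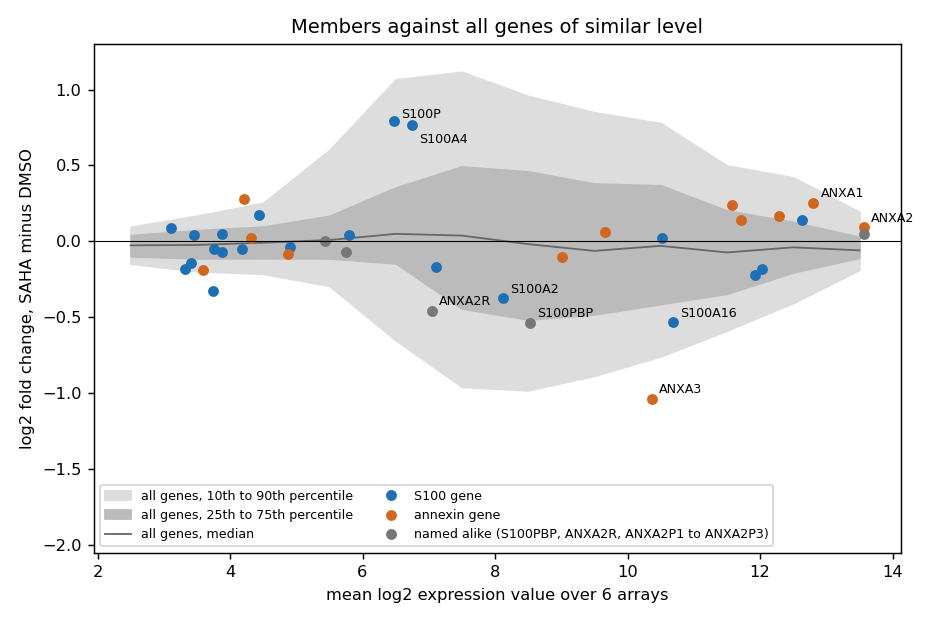
Log2 fold change against the mean log2 value over 6 arrays, with members as points and all genes as grey bands (10th to 90th and 25th to 75th percentile in bins of 1 log2 unit). ANXA3 lies below the band of its level, while S100P, S100A4 and S100A16 lie inside the outer band.

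ANXA3 encodes annexin A3, a membrane-binding protein first described as an inhibitor of phospholipase A2. With DMSO it read 10.92, 10.84 and 10.90 on the log2 scale, and with SAHA 9.85, 9.88 and 9.82. The groups lay about 1 log2 unit apart, far beyond the spread within either. ANXA3 fell by 1.04 ± 0.05 (95% interval -1.16 to -0.91, adjusted p = 2.63e-06). Its second probe set fell by 0.97 ± 0.14 in the test over all probe sets (adjusted p = 0.000614). The fall kept its call in all 18 other settings, at -1.06 to -0.85.

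S100A16 encodes a widely expressed S100 protein. It read 10.97, 10.91 and 11.00 with DMSO and 10.46, 10.42 and 10.40 with SAHA. The groups did not overlap, and the gene fell by 0.53 ± 0.05 (adjusted p = 8.17e-05). Its other probe set fell by 0.42 ± 0.06. The promoter windows of its start sites hold 3 and 8 CG dinucleotides, and that of ANXA3 holds 25.

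S100A4, also known as metastasin, binds non-muscle myosin and is tied to cell motility. The DMSO arrays read 6.24, 6.53 and 6.32 and the SAHA arrays 7.22, 7.09 and 7.10. Every SAHA value was above every DMSO value, and S100A4 rose by 0.77 ± 0.08 (adjusted p = 0.000138). All 3 of its probe sets rose, by 0.77 to 0.86.

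S100P, an S100 protein of placenta and of many carcinomas, was measured by a single probe set at 5.94, 6.37 and 5.90 with DMSO and 6.75, 6.93 and 6.91 with SAHA. The DMSO values were more scattered than the SAHA values, with SDs of 0.26 and 0.10, and did not reach them. S100P rose by 0.79 ± 0.13 (1.73-fold, adjusted p = 0.00111). Its partner gene S100PBP went the other way, from 8.78, 8.83 and 8.78 to 8.32, 8.26 and 8.20. S100PBP fell by 0.54 ± 0.06 (adjusted p = 0.000107), while its 2 dimmer probe sets gave -0.24 and -0.10 and did not pass.

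**Figure D3:**
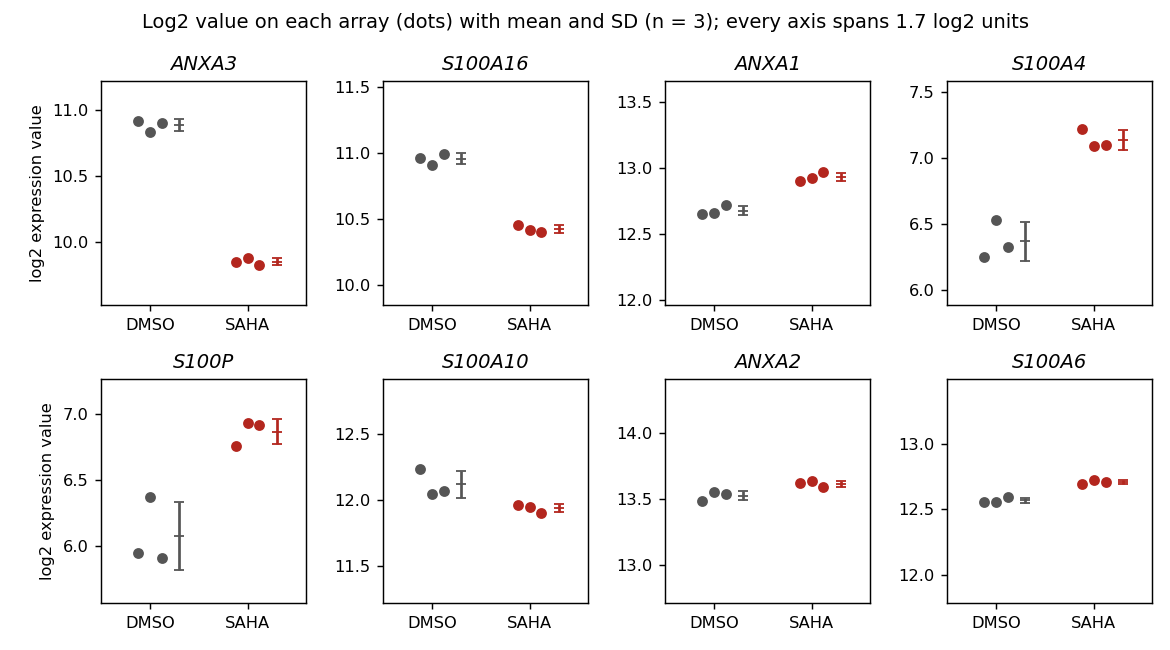
Log2 expression value on each DMSO array (grey) and SAHA array (red) with the mean and SD of 3 arrays, for 8 members, each axis spanning the same range. ANXA3 and S100A16 step down, ANXA1, S100A4 and S100P step up, and S100A10, ANXA2 and S100A6 shift by less than 0.2.

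Annexin A2 and S100A10 form a heterotetramer at the plasma membrane that binds plasminogen and its activator. The brightest ANXA2 probe set read 13.49, 13.55 and 13.54 with DMSO and 13.62, 13.64 and 13.59 with SAHA. ANXA2 was at 0.09 ± 0.05 (95% interval -0.03 to 0.21, adjusted p = 0.189), and none of its 6 probe sets passed. ANXA2 passed in 2 of 18 other settings, centred on ribosomal protein genes (0.23) and with trend and robust moderation. Without _x_at and _s_at probe sets ANXA2 was at -0.01, read from a dimmer probe set at a mean log2 value of 8.57. S100A10 read 12.24, 12.05 and 12.07 with DMSO and 11.96, 11.95 and 11.90 with SAHA, a difference of -0.18 ± 0.07 that missed the threshold (adjusted p = 0.0571) and passed it in 3 of 18 other settings. The pseudogene ANXA2P2 read 13.57, 13.52 and 13.56 with DMSO and 13.59, 13.59 and 13.62 with SAHA. Its probe set is of a kind designed on sequence shared by similar transcripts, so the signal of pseudogene and gene cannot be told apart. ANXA2P1 and ANXA2P3 were dimmer, at means of 5.75 and 5.44, and did not pass.

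ANXA2R, a short gene proposed to encode a receptor of annexin A2, was at 7.25, 7.33 and 7.25 with DMSO and at 6.91, 6.73 and 6.81 with SAHA. It fell by 0.46 ± 0.06 (adjusted p = 0.000572), and centred on poly-A spike-ins the value was -0.28 and did not pass.

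ANXA1 encodes annexin A1, an anti-inflammatory protein induced by glucocorticoids. Its brightest probe set read 12.66, 12.66 and 12.72 with DMSO and 12.91, 12.92 and 12.97 with SAHA. The rise was small next to that of S100A4 but larger than the spread, at 0.25 ± 0.05 (adjusted p = 0.00459). All 5 probe sets of ANXA1 passed. The 4 bright ones gave 0.25 to 0.29, and a dim one, at a mean of 4.79, gave 0.77 ± 0.12. The call held in all 18 other settings.

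ANXA11, which links RNA granules to lysosomes, rose by 0.24 ± 0.06 (adjusted p = 0.0139). It read 11.37, 11.50 and 11.49 with DMSO and 11.73, 11.72 and 11.63 with SAHA. Its other 7 probe sets, at -0.13 to 0.17, did not pass, nor did the mean of all 8 (0.12). ANXA5, known as a probe for exposed phosphatidylserine, read 12.25, 12.20 and 12.18 with DMSO and 12.38, 12.36 and 12.38 with SAHA, a rise of 0.17 ± 0.05 (adjusted p = 0.0272). ANXA5 kept this call in 8 of 18 other settings. It did not pass without DMSO array 2 or 3 or without any SAHA array, at 0.15 to 0.18. ANXA10 rose by 0.28 ± 0.10 at the low mean of 4.21 (adjusted p = 0.0449). Its groups overlapped, with 3.96, 4.15 and 4.09 against 4.45, 4.43 and 4.15, and without DMSO array 1 or 3 or SAHA array 1 or 2 it did not pass, at 0.22 to 0.29.

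The other annexins did not pass. ANXA7, which aids membrane fusion, was at 0.14 ± 0.06 (adjusted p = 0.0830) and passed in 7 of 18 other settings. ANXA6 was at 0.06 ± 0.06 and ANXA4 at -0.10 ± 0.06. ANXA4 had 9 probe sets, of which 3 were called lower, at -0.27 to -0.19, while the brightest was not. ANXA8, ANXA9 and ANXA13 were under a mean log2 value of 5 and differed by -0.19 to 0.02.

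**Figure D4:**
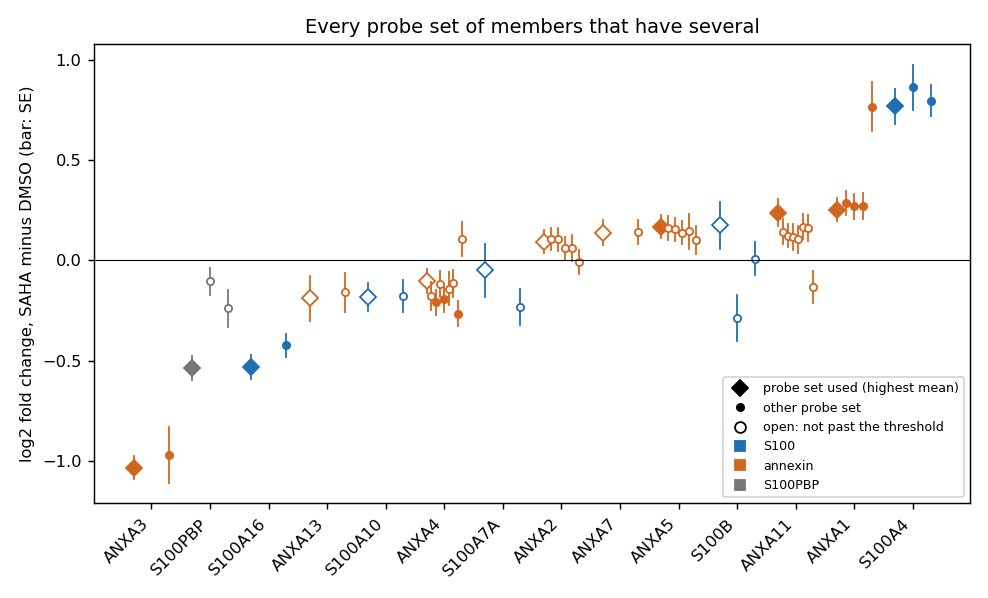
Log2 fold change with its standard error for every probe set of the 14 members with several, the brightest drawn as a diamond and points drawn without fill where the adjusted p over probe sets is not under 0.05. The probe sets of ANXA3, S100A16, S100A4 and ANXA1 are filled throughout, and no member has filled points on both sides of zero.

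Most S100 genes stand in a run on chromosome 1, and neighbours there differed in level and in call. In the RefSeq annotation S100A6, S100A5, S100A4, S100A3, S100A2 and S100A16 follow each other with a single annotated locus between S100A4 and S100A3. Of the 16 protein-coding S100A genes of the chromosome, 1 rose (S100A4), 4 fell and 11 did not pass. Over all genes 24.6% rose and 23.8% fell. Several of the 16 lay under a mean log2 value of 5, where 11.9% of all genes passed in either direction. S100A4 rose between S100A5, which was dim at a mean of 4.90 and at -0.03 ± 0.08, and S100A3, which fell by 0.17 ± 0.05.

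S100A2, an S100 protein of basal epithelial cells that is often lost in tumours, read 8.20, 8.26 and 8.45 with DMSO and 7.97, 7.88 and 7.93 with SAHA. It fell by 0.37 ± 0.08 (adjusted p = 0.00453), while with poly-A spike-ins as the centre the value was -0.19 and did not pass. S100A3, a protein of the hair cuticle, read 7.19, 7.19 and 7.22 against 7.06, 7.02 and 7.01 (adjusted p = 0.0252). S100A3 kept this call in 8 of 17 other settings. Without array 2 or 3 of either group it did not pass, at -0.17 to -0.16, and with poly-A spike-ins as the centre the value turned to 0.013.

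S100A11, a binding partner of annexin A1, read 12.04, 11.99 and 12.05 with DMSO and 11.82, 11.79 and 11.82 with SAHA. It fell by 0.22 ± 0.05 (adjusted p = 0.00780) in its only probe set, which is of the _s_at kind. S100A11 therefore had no other probe set to compare, and no value without _x_at and _s_at probe sets. The groups were apart by several times their SDs, but centred on ribosomal protein genes the value was -0.08 and on poly-A spike-ins -0.04, neither of which passed. S100A6, or calcyclin, which binds the adaptor CACYBP, read 12.56, 12.56 and 12.59 with DMSO and 12.69, 12.73 and 12.71 with SAHA. The difference of 0.14 ± 0.05 just missed the threshold (adjusted p = 0.0514), although the groups did not overlap, and it passed in 7 of 17 other settings. S100A13, which takes part in the release of FGF1, was at 0.02 ± 0.05.

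**Figure D5:**
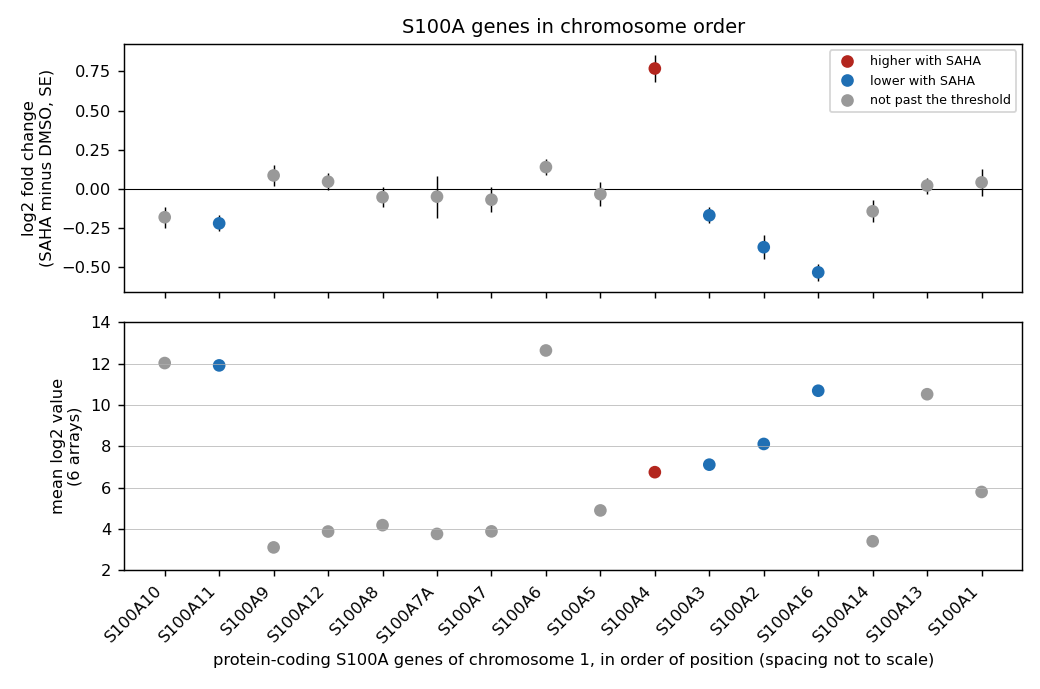
The 16 protein-coding S100A genes of chromosome 1 in order of position, with the log2 fold change and its standard error above and the mean log2 value of 6 arrays below. S100A4, in red, stands alone as a rise, next to the falls of S100A3, S100A2 and S100A16, while S100A9 to S100A7 lie at low levels near zero change.

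The alarmins S100A8, S100A9 and S100A12, made mainly by neutrophils and monocytes, had mean log2 values of 4.19, 3.11 and 3.88 and changes of -0.05, 0.09 and 0.05. S100A7, or psoriasin, and S100A7A were at 3.89 and 3.76, with changes of -0.07 and -0.05. None of these 5 passed. The probe sets that the array holds for background ranged from 2.59 to 10.46 with their GC content, with a median of 3.26. Immune cell markers were low as a group, with 5 of 6 measured and their mean log2 value at 4.10 to 4.15 with DMSO and 4.19 to 4.33 with SAHA. Of these, CD14 was higher by 1.01 and CD3E lower by 0.25, and their part in the S100 values was not tested.

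Outside the run, S100B at 0.17 ± 0.12 and S100G at 0.04 ± 0.16 were dim and did not pass. The other probe sets of S100B, at -0.29 and 0.01, did not pass either, and the mean of its probe sets was at -0.03. S100Z fell by 0.33 ± 0.09 at a mean of 3.74 (adjusted p = 0.0152), with 3.87, 3.77 and 4.06 against 3.68, 3.52 and 3.52. Without SAHA array 2 or 3 the call of S100Z was lost, at -0.30 each, as it was after centring on ribosomal protein genes (-0.19) or poly-A spike-ins (-0.15). Within the run, S100A1, a protein of heart muscle, at a mean of 5.79 and S100A14 at 3.41 did not pass, and neither did S100A7L2 at 3.32.

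Some genes of proteins that S100s and annexins work with changed by more than any S100 or annexin gene. As a set, the listed genes were called about as often as all genes. Of 71 measured genes in 5 lists of partners and relatives 17 rose and 16 fell, where 24.6% and 23.8% of all genes did. Their median change was 0.007, and that of all genes was -0.007. The changed genes named from these lists have the smallest p-values of their list, so they do not describe the lists as sets. Among 16 receptors and binding partners of S100 proteins 5 rose and 5 fell. Most of these had a mean log2 value of at least 7, where 75.1% of all genes passed. TLR4, a receptor of extracellular S100A8 and S100A9, fell by 1.38 ± 0.09, from 8.49, 8.52 and 8.72 to 7.26, 7.27 and 7.05. HLTF, a chromatin remodeller, rose by 1.09 ± 0.05 and EZR, the membrane linker ezrin that S100P binds, by 0.67 ± 0.06. AHNAK, the giant scaffold that binds the complex of annexin A2 and S100A10, fell by 0.86 ± 0.06 in its brightest probe set and rose by 0.54 in its second brightest. RAGE, the product of AGER, was at 0.18 ± 0.07 and did not pass.

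The largest changes among the partners were in the plasmin system. Of 8 measured annexin receptors and plasmin genes 2 rose and 2 fell, where 24.6% and 23.8% of all genes did. PLAU, which encodes urokinase, fell by 2.65 ± 0.07 and its receptor PLAUR fell by 2.47 ± 0.07. PLAT, which encodes the tissue plasminogen activator that the annexin A2 complex binds, rose by 1.91 ± 0.06, and PLA2G4A, a cytosolic phospholipase, rose 2.83-fold from a mean log2 value of 6.63 to 8.13. The annexin A1 receptors FPR1 and FPR2 were dim, at means of 3.76 and 3.87, and did not pass.

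Of 15 genes of membrane repair and the penta-EF-hand family 1 rose and 5 fell. Most of them had a mean log2 value of at least 7, where 75.1% of all genes passed in either direction. GCA, or grancalcin, rose by 2.10 ± 0.06, from 8.31, 8.19 and 8.36 to 10.40, 10.38 and 10.39. PEF1, or peflin, fell by 1.16 ± 0.06, the ferlin MYOF fell by 0.64 ± 0.05 and the calpain CAPN2 fell by 0.45 ± 0.06. With poly-A spike-ins as the centre CAPN2 was at -0.27 and did not pass (adjusted p = 0.0747). Of 14 other EF-hand proteins, most of them at that level too, 7 rose and 3 fell. CALB2, or calretinin, rose by 1.17 ± 0.06, the centrin CETN2 by 0.90 ± 0.05, HPCAL1 by 0.72 ± 0.05 and the secretory pathway protein CALU by 0.51 ± 0.05.

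Of 7 basal and mesenchymal markers of the line, 5 had means from 11.80 (CAV1) to 13.99 (VIM), while LOX was at 7.33 and SPARC at 5.86. Of 10 luminal markers, PGR was at 3.33, CDH1 at 4.18 and ESR1 at 5.99. The list was not low throughout, with KRT18 at 11.80, KRT8 at 10.35, KRT19 at 8.73 and EPCAM at 8.21. Probe levels do not rank these genes. Of the basal and mesenchymal markers 4 were lower with SAHA, and of the luminal markers 1 was higher (KRT19, by 2.74) and 5 lower. Over all genes 24.6% were higher and 23.8% lower. Most of these markers had a mean log2 value of at least 7, where 75.1% of all genes passed in either direction. When only genes at that level were fitted, 38.9% of them were higher and 42.8% lower. Among the array controls, the 3' to 5' difference of ACTB was 0.89 ± 0.16 log2 units with DMSO and 0.61 ± 0.06 with SAHA (SD, n = 3). Its groups did not overlap, and an exact two-sided permutation test gave p = 0.1, which no comparison of 3 arrays with 3 can go below. For GAPDH the difference went the other way, at 0.03 ± 0.02 and 0.06 ± 0.02, and the 28S controls were at 9.63 ± 0.03 and 9.43 ± 0.06, each with the same exact permutation p of 0.1. The ribosomal protein genes, at 13.42 ± 0.01 and 13.28 ± 0.01, did not overlap either, while the poly-A spike-ins, at 6.83 ± 0.13 and 6.65 ± 0.08, gave an exact permutation p of 0.2. The part of these measures in the changes given above was not tested.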

How the data were processed

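Biotin-labelled RNA of 6 samples was hybridized to Affymetrix arrays, per the labels' protocols. Deposited were log2 values for each probe set, which the authors made with RMA, per the submitters' processing notes, which equalizes the arrays' distributions, so that a shift of most transcripts cannot be read. RMA software and probe build: not given in the sources used here. Of 49395 probe sets, 44988 name 1 gene in the platform annotation. A gene was its probe set with the highest mean.

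SAHA was compared with DMSO in limma 3.58.1 (R 4.3.3; lmFit, eBayes, no covariates, two-sided, Benjamini-Hochberg over 18132 genes, threshold 0.05). Second probe sets come from the same fit over 49293 probe sets. The fit was tried on simulated data in which a far smaller share of genes changed than was called here. The trial therefore does not gauge the error rate in these data. Array controls were compared by exact permutation over arrays. The number of arrays limits the precision. Every member could be named, and the 4 partners with the smallest p in each list. The members and lists (S100 partners, annexin receptors and plasmin, membrane repair, other EF-hand proteins, epidermal differentiation complex, basal, luminal and immune markers) were chosen with earlier results of these data known. Listed genes without a probe set of their own were not analysed here. Symbols and promoters are RefSeq's, GRCh38.p14. Alternatives were the replicate block, other probe sets, filters, scalings, moderation, a stricter threshold and leaving out each array.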

Additional observations from a re-analysis of the deposited data

How the results depend on the processing

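Of the 14 called members, 5 (ANXA1, ANXA3, S100A4, S100A16 and S100P) kept their call in each alternative that could be run for them, and 10 of the 24 others passed in some alternative. S100A3 turned from -0.17 to 0.013 when centred on poly-A spike-ins. AHNAK turned from -0.86 to 0.54 with its second brightest probe set, or without _x_at and _s_at probe sets. The cause of these changes was not tested.

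Counts under another centring moved with those of all genes, of which 36.2% were higher and 17.9% lower when centred on ribosomal protein genes, and 33.2% and 13.3% when centred on poly-A spike-ins. Centred on ribosomal protein genes, S100 calls were 6 higher and 2 lower, annexin calls 7 higher, all members 14 higher and 5 lower, and partners 28 higher. Centred on poly-A spike-ins, S100 calls were 4 higher and 1 lower, annexin calls 5 higher, all members 9 higher and 3 lower, and partners 25 higher and 8 lower. With the second brightest probe set, which only 14 members have, S100 calls were 1 higher and 1 lower, annexin calls 1 higher, and all members 2 higher and 2 lower. Of all genes that have one, 23.2% were higher and 24.8% lower. At a threshold of 0.01, S100 calls were 2 higher and 3 lower, annexin calls 1 higher and 1 lower, and all members 3 higher and 6 lower. Of all genes 20.5% were then higher and 19.5% lower. With means of at least 7, where 7 S100 genes remain, 1 S100 gene was higher. That gene was S100A6, which had missed the threshold in the main test. S100A4 and S100P, at means of 6.75 and 6.47, were left out by this filter. Of all genes at that level 38.9% were higher and 42.8% lower.

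The replicate numbers did not pair the arrays: deviations of same-numbered arrays correlated at -0.10 to -0.03, and none of the 6 arrays was closest to its own number. With the replicate number as a block, annexin calls were 2 higher, S100 calls 2 higher and 4 lower, and all members 4 higher and 7 lower. Of all genes 23.2% were higher and 22.5% lower with that block. Leaving out each array gave 2 higher and 3 to 5 lower S100 genes, 2 to 3 higher and 1 lower annexins, 4 to 5 higher and 6 to 8 lower members, and 17 to 18 higher and 14 to 17 lower partners. The shares of all genes were then 22.7% to 23.9% higher and 21.8% to 22.9% lower.

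Of the members, 15 had a mean log2 value under 5, and how far the floor compresses a change there was not tested.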

Other observations

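The epidermal differentiation complex shares the S100 run's part of chromosome 1, and its genes were mostly dim, with 13 of 18 measured genes under a mean log2 value of 5. In limma's test 2 rose and 1 fell, where 11.9% of all genes under a mean of 5 passed in either direction. FLG encodes filaggrin, a skin barrier protein of the S100-fused type that begins with an S100-like EF-hand domain. It read 3.36, 3.50 and 3.49 with DMSO and 5.28, 4.99 and 4.98 with SAHA, a rise of 1.63 ± 0.09 (3.10-fold, adjusted p = 4.07e-06). The rise was thus larger than that of any S100 gene named here, and FLG kept its call in all 15 alternatives that could be run for it, at 1.54 to 1.81. TCHH, or trichohyalin, of the same type, rose by 0.26 ± 0.07 at a mean of 3.94 and RPTN, or repetin, fell by 0.20 ± 0.07 at 3.13, and these calls were lost in 3 of 16 and 11 of 15 alternatives. SPRR1A, a cornified envelope protein, was at -0.19 ± 0.08 and did not pass.

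ANXA8 and its near copy ANXA8L1 are mostly measured together. Of 5 probe sets that name both along with LINC00842, 1 fell by 0.45 ± 0.09 (adjusted p = 0.00367) at a mean of 5.20, and the others were at -0.24 to -0.03 and did not pass. Which of these transcripts the signal comes from cannot be told apart. The 2 probe sets that name both S100A7 and S100A7A were at -0.01 and 0.08 and did not pass.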
